A study of Mus musculus with 12 samples.

Results

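The genes described here are 41 genes of the G2/M boundary and of mitosis, from the cyclins that start division to the proteins that pinch the cell apart. They were taken as a fixed list of symbols, and where a symbol had several rows in the expression table the row with the highest mean over the 12 samples was kept. All 41 were found among 23598 rows, and all 41 passed a filter of at least 0.5 FPKM (fragments mapped to a gene, scaled to transcript length and sequencing depth) in at least 3 samples, as did 14581 rows in all. Total RNA came from the apical and middle turns of the mouse cochlea, in pools of 6 or more cochleae at postnatal day 7. The series title and design text name proliferation of supporting cells and the mitotic making of hair cells after changes to the Wnt and Notch pathways. There were 4 groups of 3 samples: b-catenin-OE and Notch1-KO, in which both changes are combined (called the double group here), b-catenin-OE alone, Notch1-KO alone, and Control. The sources used here name no allele, no driver or cell type in which the changes were made, no strain and no agent that the groups may share. The labels do not say that the 3 samples of a group are separate pools of animals, so the p-values measure the spread between these samples only, which may be technical.

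A cell enters mitosis when cyclin B binds the kinase Cdk1 and the phosphatases of the Cdc25 family remove inhibitory phosphates from it. The kinases Plk1 and Aurora then drive the making of the spindle, the spindle checkpoint holds anaphase back until every chromosome is attached. The anaphase-promoting complex, with its activator Cdc20, ends mitosis by having cyclin B and securin destroyed. Most of these genes are transcribed late in the cell cycle and are kept silent in resting cells. In the mouse cochlea, hair cells and supporting cells stop dividing before birth, and in birds and fish supporting cells divide to replace lost hair cells.

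Late cell-cycle genes are known for a pair of promoter elements: the CHR (cell cycle genes homology region), with the letters TTTGAA or TTCGAA, which is bound by the MuvB core of the DREAM repressor and of the B-Myb and FoxM1 activators, and upstream of it CCAAT boxes bound by NF-Y. The promoters of 6 members are shown, from 250 bases before to 50 bases after the annotated start (RefSeq, GRCm38.p6), 5′ to 3′ on the gene's strand. Capitals mark these letters on either strand, so that TTCAAA stands for TTTGAA and ATTGG for CCAAT read from the other strand, while TTCGAA reads the same on both. Ube2c (chr2:164769679-164769978, plus strand) and Ccnb2 (chr9:70421505-70421804, minus strand) are shown as the members with the highest log2 differences between the double group and Control. Plk1 (chr7:122159185-122159484, plus strand) and Cdc20 (chr4:118437294-118437593, minus strand) are shown as the polo kinase and the anaphase activator. Racgap1 (chr15:99651607-99651906, minus strand) is the member that also passed the test against Notch1-KO, and Anln (chr9:22389157-22389456, minus strand) is the member with the smallest difference between the double group and Control.
Ube2c: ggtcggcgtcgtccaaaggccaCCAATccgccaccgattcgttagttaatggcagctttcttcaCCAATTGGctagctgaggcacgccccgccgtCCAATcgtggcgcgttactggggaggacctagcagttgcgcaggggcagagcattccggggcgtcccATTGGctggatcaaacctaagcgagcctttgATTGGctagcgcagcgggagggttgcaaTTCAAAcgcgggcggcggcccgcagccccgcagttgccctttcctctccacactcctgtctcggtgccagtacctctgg
Ccnb2: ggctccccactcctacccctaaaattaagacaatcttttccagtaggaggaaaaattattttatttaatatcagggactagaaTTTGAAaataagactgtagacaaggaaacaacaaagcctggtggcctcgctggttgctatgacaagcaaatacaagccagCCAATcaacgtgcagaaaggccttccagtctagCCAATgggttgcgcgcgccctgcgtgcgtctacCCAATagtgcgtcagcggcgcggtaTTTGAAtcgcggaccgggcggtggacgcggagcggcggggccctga
Plk1: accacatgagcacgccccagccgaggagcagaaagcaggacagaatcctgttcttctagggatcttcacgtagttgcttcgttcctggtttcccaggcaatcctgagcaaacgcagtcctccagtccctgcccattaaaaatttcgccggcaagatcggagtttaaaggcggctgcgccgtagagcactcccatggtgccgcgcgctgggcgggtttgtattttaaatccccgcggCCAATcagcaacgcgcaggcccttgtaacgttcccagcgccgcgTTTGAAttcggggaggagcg
Cdc20: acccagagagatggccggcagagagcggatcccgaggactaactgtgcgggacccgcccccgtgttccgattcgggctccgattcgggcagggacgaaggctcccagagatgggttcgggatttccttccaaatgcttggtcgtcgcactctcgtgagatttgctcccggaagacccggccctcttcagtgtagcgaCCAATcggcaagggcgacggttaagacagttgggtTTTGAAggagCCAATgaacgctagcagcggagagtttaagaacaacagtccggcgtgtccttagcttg
Racgap1: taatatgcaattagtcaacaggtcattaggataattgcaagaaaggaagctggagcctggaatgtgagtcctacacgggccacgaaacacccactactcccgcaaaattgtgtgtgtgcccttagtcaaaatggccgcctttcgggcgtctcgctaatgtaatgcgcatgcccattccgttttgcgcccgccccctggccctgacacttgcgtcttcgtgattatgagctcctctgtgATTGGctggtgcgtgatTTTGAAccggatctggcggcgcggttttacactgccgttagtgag
Anln: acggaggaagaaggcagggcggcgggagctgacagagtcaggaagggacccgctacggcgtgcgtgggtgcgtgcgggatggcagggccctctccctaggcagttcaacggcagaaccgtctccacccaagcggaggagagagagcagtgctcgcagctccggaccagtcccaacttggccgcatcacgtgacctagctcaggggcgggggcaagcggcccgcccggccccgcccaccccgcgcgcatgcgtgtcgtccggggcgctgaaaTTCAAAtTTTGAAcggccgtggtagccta
Each of the 6 held TTTGAA near the start: from base 5 to 10 after the start in Ccnb2, 6 to 11 in Racgap1, 31 to 36 in Plk1, 29 to 34 in Anln, and before the start, from base -18 to -13, in Cdc20 (base 1 is the first base transcribed from the annotated RefSeq start). In Ube2c it lay on the opposite strand, from -29 to -24, and Anln held another copy on the opposite strand, from 22 to 27. CCAAT was found in 5 of the 6 and not in Anln. Cdc25b, with the next smallest difference between the double group and Control, held TTCGAA from 8 to 13. It also held a reverse CCAAT from -28 to -24. CCAAT was missing too in Kif2c, which passed the test of the double group against Control, and in Ndc80, which did not. In Ube2c a forward and a reverse CCAAT overlap, in the run CCAATTGG.

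Of the 41 members 35 had a promoter in the RefSeq table, and Kif20a, Cdc25c, Dlgap5, Tpx2, Aurkb and Ccna2 did not match. For 28 of the 35 the bases after the start were found in a GENCODE transcript of the gene, so positions hold for the RefSeq start only. TTTGAA on either strand was found in 24 of the 35 (68.6%), against 18.1% of the promoters of 27025 symbols. TTCGAA was found in 4 (11.4%), against 1.57%, and CCAAT in 28 (80%), against 37.9%. Both a CHR sequence and a CCAAT stood in 23 of the 35 (65.7%), against 7.7% of all promoters. In 23 members a TTTGAA or TTCGAA began within 60 bases of the start. The share of all promoters was not taken for this count, so nothing is read from it. The 27025 symbols were not limited to expressed genes, while all members passed the 0.5 FPKM filter, so the shares above are not strictly comparable. Nuf2, Nusap1, Tacc3 and Birc5 held none of these letters anywhere in the stretch taken. Birc5 was called higher in the double group against Control, and Nuf2, Nusap1 and Tacc3 were not. These are matches of letters, and binding was not measured. Whether the letters bear on the differences between the groups was not tested.

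The genetic changes were checked at 2 genes. Notch1 had 8.62, 5.70 and 5.77 FPKM in the double group, 37.6, 15.7 and 16.7 in b-catenin-OE, 9.16, 7.63 and 7.56 in Notch1-KO, against 24.3, 14.7 and 16.6 in Control, so every double and Notch1-KO sample lay below every sample of the other 2 groups. Lgr5, a Wnt target and a supporting cell gene, had 49.9, 50.9 and 50.2 FPKM in the double group, 50.1, 33.0 and 32.3 in b-catenin-OE, 7.91, 6.71 and 6.67 in Notch1-KO, against 8.07, 7.48 and 7.71 in Control. The Ctnnb1 row gives no value per exon and checks no allele. Within a group, samples 2 and 3 resembled each other more than either resembled sample 1. The log2 differences of 5889 well expressed genes (10 FPKM or more throughout) had a robust SD of 0.0744 to 0.131 for sample 2 against 3 and of 0.287 to 0.438 for either against sample 1. Steps between low FPKM values put the samples numbered 2 and 3 at 18400000 to 26600000 fragments, provided the authors scaled FPKM no further, and leave the depth of the samples numbered 1 unknown. At those depths 1 fragment of a 2 kb transcript is worth 0.0188 to 0.0272 FPKM, below the lowest member value, 0.221 FPKM (Gtse1 in Control sample 2).

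1 library stood apart for these genes. b-catenin-OE sample 1 had a summed FPKM of 67.2 over the 41 members, against 293 and 283 in b-catenin-OE samples 2 and 3. Of the Wnt targets, Lgr5 was higher in it than in samples 2 and 3, while Sp5 was lower, at 28.3 FPKM against 45.4 and 45.4. It held the lowest of all 12 values for 27 members, and lay below every Control sample for 27. Results on b-catenin-OE are given with and without it. It was singled out by the values of these same members, so their counts and p-values without it are not independent of that choice. All 12 samples share 1 estimate of the spread, so it also enters the tests of the other groups.

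Summed over the 41 members, the double group had 303, 224 and 234 FPKM, b-catenin-OE 67.2, 293 and 283, Notch1-KO 109, 115 and 114, and Control 94.5, 91.2 and 83.1. The median member stood at 5, 3.32 and 3.68 FPKM in the double group, 1.13, 4.68 and 4.63 in b-catenin-OE, 1.75, 1.95 and 1.8 in Notch1-KO, against 1.60, 1.45 and 1.28 in Control. The double samples and b-catenin-OE samples 2 and 3 thus formed the high end. The highest of the 12 values fell in double sample 1 for 21 members, in b-catenin-OE sample 2 for 13 and in b-catenin-OE sample 3 for 7. None of the members was abundant: over the 12 samples the mean ranged from 0.873 FPKM for Cenpf, at percentile 8 of the tested genes, to 17.0 FPKM for Cks2, at percentile 65.5. At least 0.5 FPKM was present in all 12 samples for 31 members. Cenpf was below 0.5 FPKM in all 3 Control samples, and 7 members were below it in at least 1. In RNA from whole turns, fewer dividing cells and less of these RNAs per cell cannot be told apart.

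**Figure D1:**
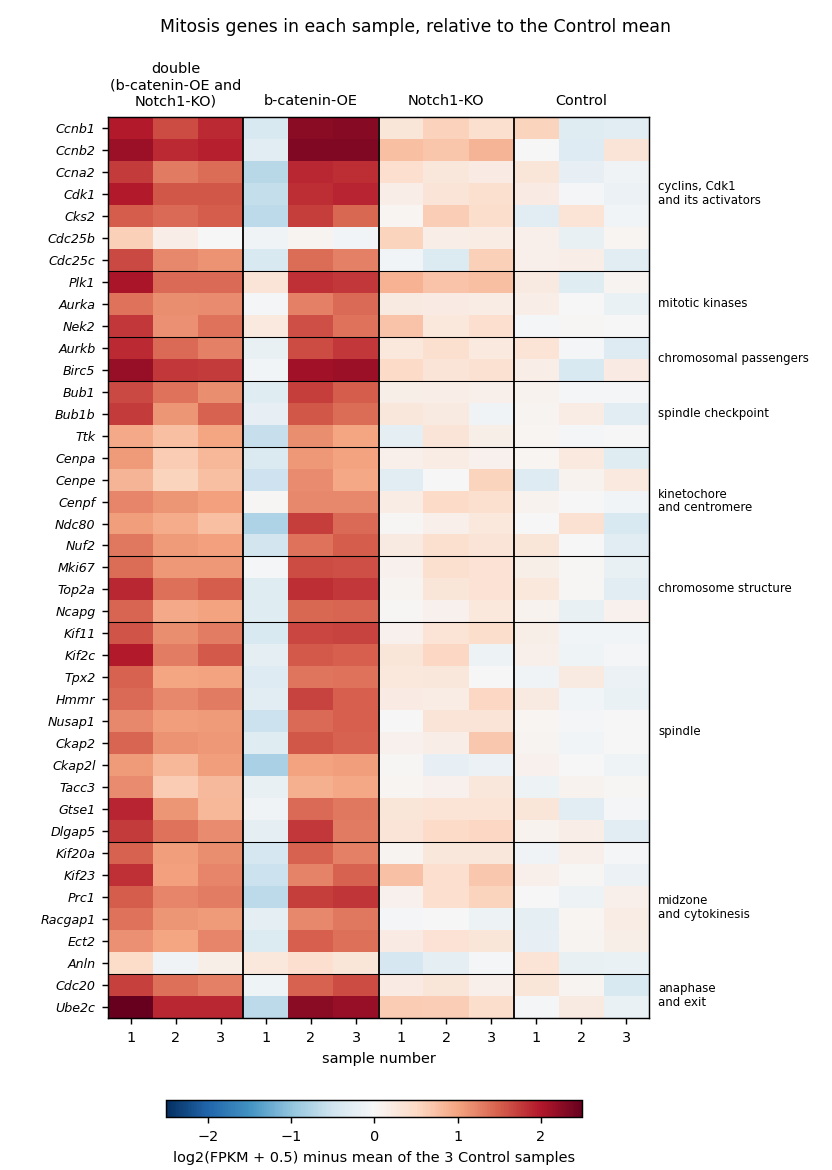
Each row is a mitosis gene and each column a sample, coloured by log2(FPKM + 0.5) minus the mean of the 3 Control samples; rows are grouped by role. The 3 double samples and b-catenin-OE samples 2 and 3 are red for nearly all rows, b-catenin-OE sample 1 is pale or blue, and Cdc25b and Anln stay pale throughout.

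In the double group against Control, 16 of the 41 mitosis genes rose and 0 fell. Each of the 9 role classes held at least 1 of them: the mitotic kinases Plk1, Aurka and Nek2, the chromosomal passengers Aurkb and Birc5, the checkpoint genes Bub1 and Bub1b, the anaphase genes Cdc20 and Ube2c, the spindle genes Kif2c, Dlgap5 and Gtse1, and Ccnb2, Cenpf, Top2a and Racgap1. Over the 41 genes the median log2 difference was 1.30, all 41 differences were above 0, and over all tested genes the median was -0.02. Calls are limma's on log2(FPKM + 0.5) at a Benjamini-Hochberg adjusted p under 0.05, and at this threshold 5.88% of all tested genes were called higher and 6.64% lower. With 39 of 41 members every double sample lay above every Control sample, which held for 15.9% of tested genes. The exceptions were Cdc25b and Anln. The rows of both cover loci much longer than the gene, so their values may hold reads of neighbours. An unadjusted p under 0.05 was reached by 37 members, against 26.3% of all tested genes. Without b-catenin-OE sample 1, which is in neither group but enters the shared spread, 38 members rose (8.32% of all genes), with the fold changes as before. In a model of the double and Control samples alone 38 rose as well (5.05%), and with samples 2 and 3 of every group alone 38 rose where 20.9% of all genes did.

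Cyclins, Cdk1 and the factors that activate it gave 1 call of 7. Ccnb2 (cyclin B2; chromosome 9, 70407687 to 70421554, mm10) had 9.87, 8.12 and 8.52 FPKM in the double group, 1.46, 11.3 and 11.2 in b-catenin-OE, 3.46, 3.32 and 3.77 in Notch1-KO, against 1.87, 1.39 and 2.44 in Control. All double samples were over 3-fold above the highest Control sample, and the log2 difference was 1.98 ± 0.53 (SE, n = 3 per group; limma adjusted p = 0.0318). Ccnb1 (cyclin B1) had 9.04, 6.97 and 8.23 FPKM in the double group and 3.05, 1.47 and 1.51 in Control, and Cdk1 13.2, 9.66 and 9.59 in the double group and 3.47, 2.85 and 2.61 in Control. Neither overlapped, yet both stood just outside the threshold, Ccnb1 at 1.82 ± 0.56 (limma adjusted p = 0.0559) and Cdk1 at 1.70 ± 0.51 (adjusted p = 0.0509). Cks2, a small subunit that Cdk1 needs to reach its substrates and the most abundant member (chromosome 13, 51645232 to 51650662), had 26.7, 24.8 and 26.8 FPKM in the double group, 5.60, 31.2 and 25.4 in b-catenin-OE, 9.35, 14.1 and 12.4 in Notch1-KO, against 7.47, 11.5 and 8.55 in Control. Its difference from Control was 1.48 ± 0.47 (adjusted p = 0.065). Of the phosphatases that switch Cdk1 on, Cdc25c had 2.07 ± 0.533 FPKM in the double group and 0.524 ± 0.168 in Control (SD, n = 3; limma adjusted p = 0.0612). Cdc25b, with a higher level in Control, had 11.8, 8.67 and 7.78 FPKM in the double group and 8.47, 6.78 and 8 in Control, which overlapped (0.25 ± 0.17, adjusted p = 0.384).

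All 3 mitotic kinases rose. Plk1, polo-like kinase, which acts at centrosomes, kinetochores and the midbody (chromosome 7, 122159293 to 122169875), had 5.70, 3.52 and 3.5 FPKM in the double group, 1.36, 4.78 and 4.63 in b-catenin-OE, 2.23, 1.95 and 2.01 in Notch1-KO, against 1.25, 0.714 and 1.07 in Control. The groups order as double, Notch1-KO and Control with no overlap, and double against Control was 1.63 ± 0.35 (limma adjusted p = 0.0105). Nek2, a kinase that parts the centrosomes (chromosome 1, 191821244 to 191833049), had 4.19, 2.57 and 3.06 FPKM in the double group, 1.14, 3.73 and 3.05 in b-catenin-OE, 1.75, 1.15 and 1.36 in Notch1-KO, against 0.857, 0.917 and 0.877 in Control. Its 3 Control samples lay within 0.857 to 0.917 FPKM, and its adjusted p was the lowest of the 41 (1.43 ± 0.30, adjusted p = 0.00997). Aurka, the Aurora kinase of the spindle poles (chromosome 2, 172356190 to 172382449), had 5, 4.31 and 4.37 FPKM in the double group, 1.62, 4.68 and 5.25 in b-catenin-OE, 2.04, 2 and 1.96 in Notch1-KO, against 1.92, 1.67 and 1.42 in Control (double against Control 1.23 ± 0.30, adjusted p = 0.0202).

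The chromosomal passenger complex carries Aurora B from the centromere to the midzone. Birc5, or survivin, which anchors it (chromosome 11, 117848854 to 117855743), had 12.3, 9.15 and 9.07 FPKM in the double group, 2.23, 11.7 and 12.1 in b-catenin-OE, 3.48, 3.06 and 3.23 in Notch1-KO, against 2.71, 1.69 and 2.79 in Control. The lowest double sample was over 3-fold above the highest Control sample, and the difference was 1.89 ± 0.46 (limma adjusted p = 0.0204). Its kinase Aurkb averaged 5.15 ± 1.29 FPKM in the double group and 1.48 ± 0.461 in Control (SD, n = 3) and rose by 1.52 ± 0.42 (adjusted p = 0.036).

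Spindle checkpoint genes gave 2 calls of 3. Bub1b, which encodes BubR1, an inhibitor of Cdc20 (chromosome 2, 118598211 to 118641592), had 5.5, 3.32 and 4.44 FPKM in the double group, 1.03, 4.72 and 4.16 in b-catenin-OE, 1.65, 1.57 and 1.17 in Notch1-KO, against 1.38, 1.53 and 0.980 in Control. The double samples lay above all Control samples by 1.44 ± 0.38 (limma adjusted p = 0.0301). Bub1, the kinase that brings the checkpoint to kinetochores, rose by 1.39 ± 0.41 (adjusted p = 0.0476), and Ttk, the Mps1 kinase that starts it, did not pass, with 1.73 ± 0.195 FPKM in the double group and 0.693 ± 0.042 in Control (SD, n = 3; adjusted p = 0.143).

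Among 5 kinetochore and centromere genes, the class with the lowest median difference (0.90), Cenpf passed and the other 4 did not. Cenpf, a large kinetochore and nuclear matrix protein (chromosome 1, 189640614 to 189688086), had 1.52, 1.37 and 1.27 FPKM in the double group, 0.388, 1.48 and 1.5 in b-catenin-OE, 0.489, 0.701 and 0.649 in Notch1-KO, against 0.417, 0.354 and 0.328 in Control. It was the lowest member by mean, and the double and Control samples did not overlap, at a difference of 1.12 ± 0.27 (limma adjusted p = 0.0188). Cenpa, the histone H3 variant that marks the centromere (chromosome 5, 30666536 to 30679360), had 15.9, 11.6 and 13.4 FPKM in the double group, 5.63, 16.1 and 15.2 in b-catenin-OE, 8.09, 8.35 and 7.90 in Notch1-KO, against 7.63, 8.83 and 5.83 in Control (double against Control 0.84 ± 0.31, adjusted p = 0.109). The motor Cenpe and the microtubule-binding subunits Ndc80 and Nuf2 had differences of 0.72 to 1.14 and did not pass.

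Of the chromosome proteins Top2a passed. Top2a, topoisomerase II, which untangles sister chromatids (chromosome 11, 98992946 to 99024197), had 11.1, 7.68 and 8.38 FPKM in the double group, 2.03, 10.7 and 10.2 in b-catenin-OE, 2.79, 3.34 and 3.5 in Notch1-KO, against 3.24, 2.68 and 2.08 in Control. No double sample came near a Control sample, and the difference was 1.59 ± 0.45 (limma adjusted p = 0.0391). Mki67, the Ki-67 protein that coats mitotic chromosomes and is the usual marker of cycling cells, had 3.80, 2.98 and 2.98 FPKM in the double group and 1.32, 1.16 and 0.946 in Control (1.19 ± 0.36, adjusted p = 0.0527), and the condensin subunit Ncapg had a difference of 1.14 ± 0.38 (adjusted p = 0.078).

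Spindle genes were called for 3 of 10, Kif2c, Dlgap5 and Gtse1. Kif2c, the kinesin that takes microtubules apart at centromeres (chromosome 4, 117159633 to 117189566), had 3.68, 2.04 and 2.53 FPKM in the double group, 0.402, 2.54 and 2.49 in b-catenin-OE, 0.795, 1.01 and 0.463 in Notch1-KO, against 0.653, 0.482 and 0.532 in Control. Double sample 1 was the highest of the 12, and the difference was 1.59 ± 0.40 (limma adjusted p = 0.0238). Tacc3, a clathrin-bound cross-linker of spindle microtubules and the spindle gene of highest mean level (chromosome 5, 33658121 to 33678787), had 9.71, 6.56 and 7.41 FPKM in the double group, 3.47, 7.92 and 8.37 in b-catenin-OE, 4.19, 4.38 and 4.97 in Notch1-KO, against 3.66, 4.29 and 4.13 in Control (0.87 ± 0.27, adjusted p = 0.0529). The other spindle genes, among them the bipolar kinesin Kif11, the Aurora A activator Tpx2 and Hmmr, had differences of 0.99 to 1.34 that did not pass.

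Midzone and cytokinesis genes gave 1 call of 6. Racgap1, the centralspindlin subunit that positions the cleavage furrow (chromosome 15, 99620496 to 99651656), had 13.4, 11.1 and 10.8 FPKM in the double group, 4.05, 11.9 and 12.9 in b-catenin-OE, 4.77, 4.89 and 4.43 in Notch1-KO, against 4.08, 5.12 and 5.60 in Control. The Notch1-KO samples lay within the Control range while the double samples stood apart, by 1.18 ± 0.33 from Control (limma adjusted p = 0.0355). Its partner kinesin Kif23, Kif20a, Prc1 and the exchange factor Ect2 had differences of 1.12 to 1.35 that did not pass. Anln, or anillin, a scaffold of the contractile ring, had 3.58, 2.30 and 2.78 FPKM in the double group, 3.03, 3.44 and 3.14 in b-catenin-OE, 1.71, 2.05 and 2.35 in Notch1-KO, against 3.25, 2.11 and 2.14 in Control, and all groups but b-catenin-OE and Notch1-KO overlapped one another (double against Control 0.18 ± 0.19, adjusted p = 0.616).

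Both genes of anaphase and mitotic exit rose. Ube2c, the ubiquitin-conjugating enzyme of the anaphase-promoting complex (chromosome 2, 164769929 to 164772902), had 33.3, 19.7 and 19.8 FPKM in the double group, 3, 25.9 and 24.4 in b-catenin-OE, 8.06, 7.92 and 6.98 in Notch1-KO, against 4.80, 5.90 and 4.40 in Control. It had the highest log2 difference of the 41 members, 2.13 ± 0.60 (limma adjusted p = 0.0379), and its double samples also stood above all Notch1-KO samples. Cdc20 (chromosome 4, 118428093 to 118437343) had 13.6, 10.6 and 9.75 FPKM in the double group, 3.48, 11.5 and 12.8 in b-catenin-OE, 4.43, 4.80 and 4.22 in Notch1-KO, against 4.84, 3.98 and 2.83 in Control, and rose by 1.45 ± 0.37 (adjusted p = 0.0261).

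**Figure D2:**
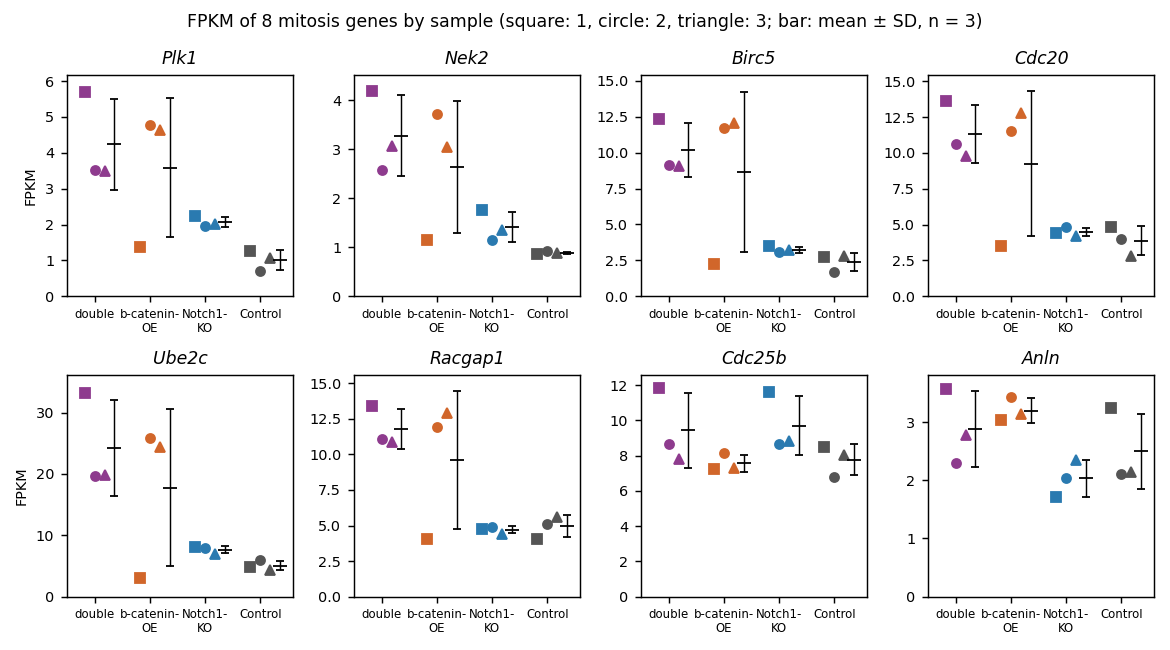
FPKM of 8 mitosis genes in each sample (square sample 1, circle sample 2, triangle sample 3; bars give the mean ± SD of 3 samples), all axes from 0. In the first 6 genes the 3 double samples lie above all Control samples while b-catenin-OE splits into 1 low and 2 high samples; Cdc25b and Anln show no such gap.

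The 16 calls had adjusted p-values of 0.00997 to 0.0477, near the threshold, and their number depended on single libraries. Leaving out 1 library at a time gave 2 to 38 calls, all higher: 38 without b-catenin-OE sample 1, 22 and 20 without b-catenin-OE samples 2 and 3, 2, 4 and 3 without double samples 1, 2 and 3, 11, 9 and 9 without Notch1-KO samples 1, 2 and 3, and 8, 2 and 3 without Control samples 1, 2 and 3. When each group's samples 2 and 3 were replaced by their mean, no member was called, 30 had an unadjusted p under 0.05, and all 41 differences stayed above 0. The sign itself did not depend on the sample number: the median was 1.45 between the samples numbered 1 and 1.21 between those numbered 2 and 3, with 41 of 41 genes above 0 in both.

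In b-catenin-OE against Control no member passed limma's test with all 12 samples, and sample 1 and samples 2 and 3 had median differences of opposite sign. Sample 1 lay below every Control sample for 27 members and above every Control sample for 2. The median log2 difference was 0.88, 40 of 41 were above 0, and 22 members had an unadjusted p under 0.05, against 14% of all tested genes (2.24% of all genes passed the adjusted test). Within sample number 1 the median was -0.39, with Nek2 and Plk1 the only 2 members above 0, and in samples 2 and 3 it was 1.51 with 41 of 41 above 0. Plk1 and Nek2 were also the 2 members for which all 3 b-catenin-OE samples lay above all Control samples (7.89% of all genes).

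Without b-catenin-OE sample 1, 39 of the 41 rose (3.72% of all genes were called higher), and for 39 both remaining samples lay above every Control sample (21.2% of all genes). With samples 2 and 3 alone 40 rose (19.3% of all genes). Without b-catenin-OE sample 1 Ccnb2 had the highest difference, 2.31 ± 0.18 (limma adjusted p = 4.27e-05), followed by Ccnb1, 2.26 ± 0.24 (adjusted p = 0.000301), Ube2c, 2.22 ± 0.21 (adjusted p = 0.000164), and Birc5, 2.12 ± 0.19 (adjusted p = 0.000149). Ccnb1 had 1.36 FPKM in b-catenin-OE sample 1, against 10.9 and 11.2 in samples 2 and 3. Cdc25b (adjusted p = 0.998) and Anln (adjusted p = 0.42) were the members that did not pass, the same 2 that overlapped between the double group and Control. Sample 1 was left out because of the values of these same members, so the higher count without it follows in part from that choice. The 2 samples that remain were close to each other, with a robust SD of 0.0879 over well expressed genes. These p-values are therefore no independent support. What sets sample 1 apart was not tested.

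**Figure D3:**
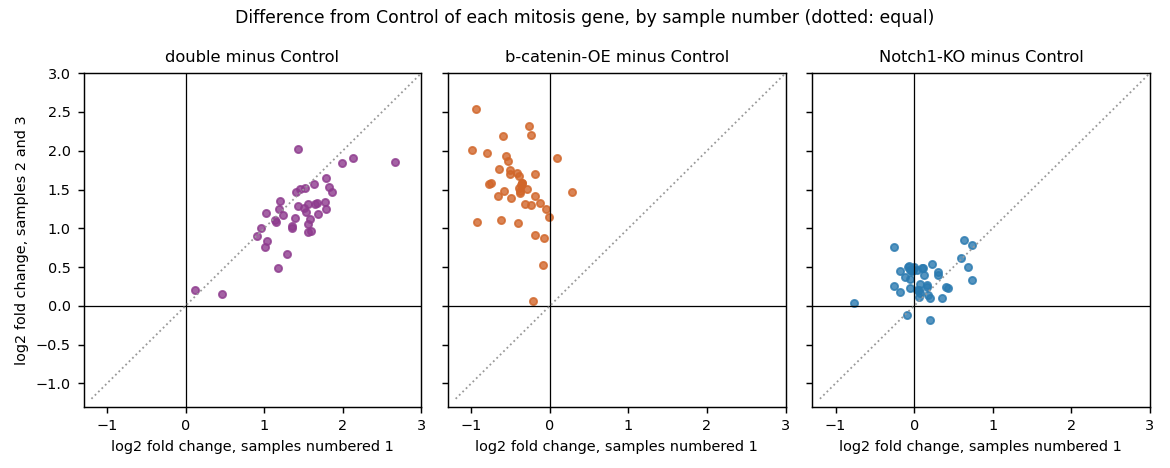
Each point is a mitosis gene; the horizontal axis gives its log2(FPKM + 0.5) difference from Control between the samples numbered 1, the vertical axis that between samples 2 and 3. Double against Control lies in the upper right in both, b-catenin-OE against Control lies in the upper left for all but Nek2 and Plk1 (median -0.39 in sample 1, 1.51 in samples 2 and 3), and Notch1-KO against Control lies near 0 on both axes.

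In Notch1-KO against Control no member passed the test (0.857% of all genes did). The median difference was 0.29, 38 of 41 differences were above 0, and 1 member, Plk1, had an unadjusted p under 0.05 (8.27% of all genes). Its difference was 0.78 ± 0.35 (limma adjusted p = 0.599). For 13 members every Notch1-KO sample nevertheless lay above every Control sample (7.43% of all genes): Ccnb2, Cdc25b, Plk1, Aurka, Nek2, Birc5, Bub1, Cenpf, Ckap2, Dlgap5, Kif23, Ect2 and Ube2c. The median was 0.07 in sample 1, with 25 of 41 above 0, and 0.37 in samples 2 and 3, with 39 above 0. Ccnb2 was called without b-catenin-OE sample 1 (0.864% of all genes were called higher; 0.76 ± 0.16, adjusted p = 0.0461). In total 15 members were called higher with samples 2 and 3 alone (6.56% of all genes), the highest of them Plk1 (0.84 ± 0.13, adjusted p = 0.00395), Ccnb2 (0.78 ± 0.18, adjusted p = 0.0236) and Ccnb1 (0.76 ± 0.10, adjusted p = 0.00199). In sample 1 Ccnb1 went the other way, with 2.48 FPKM in Notch1-KO and 3.05 in Control. Samples 2 and 3 were close to each other (robust SD 0.0754 in Notch1-KO and 0.131 in Control). The p-values from them alone rest on a small spread that may be technical. The 3 comparisons with Control share the same 3 Control samples.

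Set against Notch1-KO, the double group was higher for nearly all members, though limma called 1, Racgap1 (1.24 ± 0.33, adjusted p = 0.0329; 4.91% of all genes were called higher). For 39 of 41 every double sample lay above every Notch1-KO sample (16.1% of all genes), again with Cdc25b and Anln outside. Birc5 had a difference of 1.5 ± 0.46 (adjusted p = 0.0664), Bub1b 1.31 ± 0.38 (adjusted p = 0.0534) and Ube2c 1.56 ± 0.60 (adjusted p = 0.136). The median was 1, and 33 members had an unadjusted p under 0.05 (22.7% of all genes). Without b-catenin-OE sample 1 the count was 38 (6.95% of all genes), with the other 2 groups left out 36 (6.76%), and with samples 2 and 3 alone 38 (20.5%). The Racgap1 call was lost when any 1 double or Notch1-KO sample was left out, with samples 2 and 3 averaged, and with no filter on low values (limma adjusted p 0.0724 to 0.302).

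Against b-catenin-OE, the double group gave no call and no unadjusted p under 0.05 among the members (2.72% and 18.2% of all genes), and no member had all samples of one group above or below the other (12.6% of all genes above, 16.2% below). The median of 0.38 joined opposite values: 1.83 in sample 1, with 41 of 41 above 0, and -0.34 in samples 2 and 3, with 1 of 41 above 0 (Cdc25b, 0.09). Without b-catenin-OE sample 1 the median was -0.18 and again 0 members were called (2.44% of all genes). For 13 of 41 members all 3 double samples then lay below both b-catenin-OE samples, a share near that of all genes (27%). Ccna2, cyclin A2, had 13.2, 9.49 and 10.2 FPKM in the double group and 14.4 and 14.1 in b-catenin-OE samples 2 and 3. With samples 2 and 3 of every group alone, 11 of 41 members were called lower in the double group, against 15% of all genes: Ccna2 (-0.51 ± 0.08, limma adjusted p = 0.00162), Nusap1, Mki67, Ccnb1, Prc1, Kif11, Cdk1, Top2a, Ndc80, Ncapg and Nuf2.

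The design also asks whether the b-catenin-OE change differs with and without Notch1-KO, that is, double minus Notch1-KO less b-catenin-OE minus Control. With all samples no member passed this test of the difference or reached an unadjusted p under 0.05 (0.0206% and 8.41% of all genes), and the median was 0.11. In sample 1 it was 1.78, with 41 of 41 above 0, and in samples 2 and 3 it was -0.70, with 2 of 41 above 0, so the samples give opposite directions. Samples 2 and 3 alone called 21 members, all below 0 (10.2% of all genes), and without b-catenin-OE sample 1 limma called 0 (0.192% of all genes), at a median of -0.47.

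**Figure D4:**
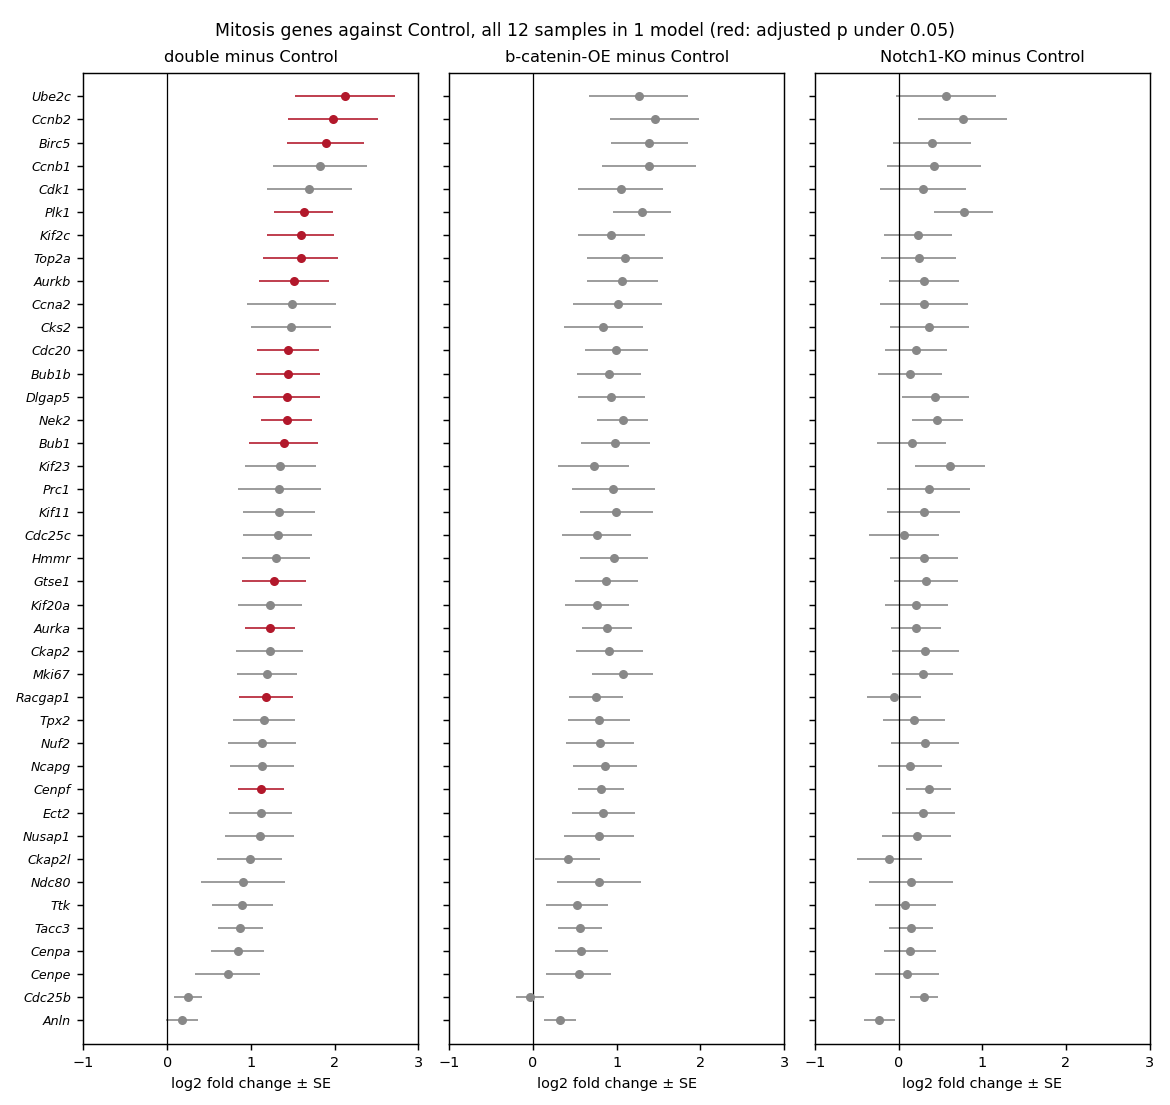
Log2 fold change (points) and SE (bars) of each mitosis gene against Control in a model of all 12 samples, ordered by the double group's value; red points have a limma adjusted p under 0.05. Ube2c, at 2.13, leads the double group and Anln, at 0.18, ends it; 16 points are red in the left panel and none in the other 2.

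In the authors' deposited table, whose test was not rerun here, 38 of the 41 members had a p under 0.05 with a higher mean in the double group than in Control (6.34% of all rows), 25 of them at the lowest p it gives, 5e-05. The authors' deposited table gave 35 for b-catenin-OE (4.1% of all rows), 19 of them at 5e-05, and 4 for Notch1-KO (2.31% of all rows), with a lowest p of 0.009. These shares are over all 23598 rows, including those under the 0.5 FPKM filter that all members pass. They are not comparable with the shares over the 14581 tested rows. Its median log2 fold change over the members was 1.61 for the double group, 1.48 for b-catenin-OE and 0.33 for Notch1-KO, all in the authors' deposited table, which gives no spread per gene.

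A list of 69 further mitosis genes had 65 tested. Of these 11 rose and 1 fell in the double group against Control (median 0.67), and 43 rose and 1 fell without b-catenin-OE sample 1. Over all tested genes 5.88% rose and 6.64% fell, and 8.32% rose without that sample. The gene that fell both times, named after its values were seen, was Tubb4b, a beta tubulin (-0.45 ± 0.12, limma adjusted p = 0.0356). The genes of lowest p in the list were Stmn1, which encodes the tubulin-binding stathmin, with 474, 542 and 580 FPKM in the double group, 319, 632 and 645 in b-catenin-OE, 167, 237 and 239 in Notch1-KO, against 199, 263 and 250 in Control (double against Control 1.17 ± 0.25, limma adjusted p = 0.0113). They also held the kinetochore gene Spc24 (1.29 ± 0.31, adjusted p = 0.0192), the condensin gene Ncapd2 (0.71 ± 0.18, adjusted p = 0.0227) and Cdca5, or sororin, which guards cohesion (1.22 ± 0.31, adjusted p = 0.0244). In b-catenin-OE against Control 1 of the 65 rose (1.4% of all genes), and 40 rose without sample 1 (3.72%).

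A list of anaphase-promoting complex genes taken as made all through the cycle, Fzr1 among them, gave 0 calls of 11 (median 0.01). Without b-catenin-OE sample 1, Anapc13, named after its values were seen, was called lower (-0.61 ± 0.15, limma adjusted p = 0.0198). The next 3 lists had 1 call each in the double group against Control, and nothing about the lists is read from them beside the 5.88% of all genes called higher. Of 12 tested regulators of late cell-cycle transcription 1 rose, E2f3, with 12.4, 11.2 and 12.4 FPKM in the double group and 8.28, 8.66 and 8.6 in Control (0.47 ± 0.10, limma adjusted p = 0.011); the median of the 12 was 0.16. E2f8, a late repressor of the E2F family, had 0.80 ± 0.28 (adjusted p = 0.0882). Of 6 tested brakes on mitotic entry the DNA damage kinase gene Chek2 rose (0.68 ± 0.20, adjusted p = 0.0462), and Chek1 had 0.72 ± 0.25 (adjusted p = 0.0908). Of 29 S phase genes Fen1, the flap endonuclease of lagging strands, rose (0.57 ± 0.16, adjusted p = 0.0437) at a list median of 0.39, and without b-catenin-OE sample 1 12 of 29 rose (8.32% of all genes). Uhrf1, which helps to copy DNA methylation to new strands, had 1.31 ± 0.43 (adjusted p = 0.0725).

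Markers of the tissue's cells moved with the groups too. Of 9 cochlear genes 8 were in the table, all at 0.5 FPKM or more in all samples. Their sum was 2856 to 3164 FPKM in the double group, 7883, 5089 and 5051 in b-catenin-OE, 5784 to 6525 in Notch1-KO, against 6612 to 7213 in Control. The 13 supporting cell markers summed to 1067 to 1321 FPKM in the double group, 1657 to 1908 in b-catenin-OE, 1470 to 1720 in Notch1-KO, against 1885 to 2130 in Control, and 12 of them were at 0.5 or more in all samples. Of the 13, 6 fell and 1 rose in the double group against Control, where 6.64% of all genes fell and 5.88% rose. The 1 that rose was Lgr5, the Wnt target used above to check the genetic changes. Those that fell, named after their values were seen, were Lfng, Hes5, Sox2, S100a1, Gjb6 and Cdkn1b. Cdkn1b encodes the cyclin-dependent kinase inhibitor p27Kip1 (-0.81 ± 0.12, limma adjusted p = 0.000967). Lfng was low in Notch1-KO too, at 22.3 to 23.2 FPKM against 68.4 to 81.2 in Control. Sox2 was not, at 46.5 to 68.7 against 41.7 to 62.1. Falls in the double group were not particular to this list. The cochlear genes Otoa, Otogl, Otor and Tectb fell too, as did Col1a1, Col3a1 and Tbx18 of mesenchyme and Bglap, Bglap2 and Ibsp of bone. So did the neuronal Syt1 and Gap43, the endothelial Cdh5 and Kdr, and Kcnj10, Pmel, Acp5 and S100b of other lists. Among the endothelial markers Emcn rose. These genes were also named after their values were seen. The part of the altered pathways themselves in these calls was not tested. Hair cell markers, 11 of 12 in the table, summed to 230 to 269 FPKM in the double group, 213 to 281 in b-catenin-OE, 390 to 397 in Notch1-KO, against 228 to 275 in Control. In the double group none of these 3 sums exceeded the highest Control sample. Most of the cochlear sum was Tectb and Otor, and S100a1 was the largest part of the supporting cell sum. The sums do not stand for every gene. Coch had 363, 158 and 159 FPKM in the double group, 567, 99.1 and 93.5 in b-catenin-OE, and 704, 131 and 128 in Control. Sox10 had 116, 89.4 and 84.0 in the double group and 71.5, 70.1 and 85.1 in Control.

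Among other cells, 12 Schwann and glial cell markers, all at 0.5 FPKM or more in all samples, summed to 534 to 722 FPKM in the double group, 1823 to 1897 in b-catenin-OE, 743 to 1137 in Notch1-KO, and 3266 in Control sample 1 against 719 and 729 in Control samples 2 and 3. Their median difference between b-catenin-OE and Control turned with the sample number, at -0.24 in sample 1 and 1.45 in samples 2 and 3. Here Control sample 1 stood apart and the b-catenin-OE sums were alike, whereas for the mitosis genes b-catenin-OE sample 1 stood apart. Of 15 macrophage and leukocyte markers 12 were in the table, with Mpo, Elane, Cd79a and Cd3e at 0 in some samples, and the sum was 159, 69.3 and 72.6 FPKM in the double group, 37.1, 72.8 and 77.8 in b-catenin-OE, 38.2 to 39.3 in Notch1-KO, against 141, 47.5 and 44.5 in Control. The 9 endothelial markers, none at 0, summed to 361, 470 and 473 FPKM in the double group, 221, 307 and 308 in b-catenin-OE, 216 to 271 in Notch1-KO, against 243 to 251 in Control, and most of each sum was Emcn; the median of the list between the double group and Control was -0.44. Erythroid markers, 7 of 11 in the table with Slc4a1 and Gata1 at 0 in some samples, summed to 5.32 to 17.3 FPKM in the double group, 29.3 to 44.6 in b-catenin-OE, 40.2 to 46.5 in Notch1-KO, against 8.97 to 64.5 in Control. For the markers of spiral ganglion neurons, mesenchyme, bone and cartilage, osteoclasts and melanocytes the list medians between the double group and Control lay between -0.93 and -0.28. The neuron markers summed to 503 FPKM in b-catenin-OE sample 1, against 290 and 284 in b-catenin-OE samples 2 and 3. Control sample 1 was high for them too, at 553 FPKM against 196 and 203 in Control samples 2 and 3. The part of these cells in the mitosis gene differences was not tested.

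Some members share sequence with neighbours. In the annotation 13 of the 41, among them Plk1, Nek2, Cdc20, Ube2c and Tacc3, have an exon opposite an exon of a gene on the other strand, and Top2a shares one with Gm23451 on its own strand. Whether counting used the strand is not given in the sources used here, so these values may hold reads of both genes. For 9 members the locus in the table was over 1.5 times as long as the gene, and such a row may hold reads of a neighbour. These were Ccna2, Cdc25b, Aurka, Cenpa, Ncapg, Kif11, Kif20a, Anln and Cdc20, so called genes such as Aurka and Cdc20 carry this limit too. So do Cdc25b and Anln, the members that overlapped between the double group and Control. The Cdc25b row runs from 131127412 to 131604824 for a gene at 131186949 to 131198497. The Anln row runs from 22055439 to 22389206 for a gene at 22332012 to 22389188. No exon overlap was found for 27 members.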

How the data were processed

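RNA of 12 samples in 4 groups of 3 was sequenced. Per the submitters' processing notes, the tools were Bowtie2 2.2.1, CASAVA 1.8, Cuffdiff, Cufflinks 2.2.1, TopHat2 2.0.10 and Trimmomatic 0.23 on mm10, and the authors deposited FPKM per gene and sample with their fold changes and p-values. Since FPKM is no count, limma 3.58.1 (R 4.3.3) was fitted to log2(FPKM + 0.5) of rows with at least 0.5 FPKM in 3 samples, with group means, all 12 samples, a trended variance, two-sided tests and Benjamini-Hochberg adjustment over 14581 rows within each comparison, at 0.05. Fold changes are on this scale and understate those of low genes. The script was tested on simulated data. Members and lists were chosen with earlier results of these data known. Values in every sample are given for the member of highest mean in each of the 9 role classes and the 8 called members of lowest p in the double group, with further members added after their values were seen. From each list up to 4 genes of lowest p are named, and from the marker lists all that were called in the double group against Control with all samples. Promoters are RefSeq's (GRCm38.p6), overlaps GENCODE's.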

Additional observations from a re-analysis of the deposited data

How the results depend on the processing

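The count of members called for the double group against Control was 16 with all samples and ranged from 2 to 38 when 1 sample was left out; it was 0 to 38 for the double group against Notch1-KO, 0 to 39 for b-catenin-OE against Control, 0 to 1 for Notch1-KO against Control, and 0 in all such fits for the double group against b-catenin-OE and for the difference of differences. With no filter on low values the double group had 3 calls against Control and 0 against Notch1-KO, and with a term for sample 1 it had 31 and 6 (11.4% and 8.83% of all genes). With samples 2 and 3 averaged it had 0 and 0. With samples 2 and 3 only, the counts were 38 for the double group against Control, 40 for b-catenin-OE against Control, 15 for Notch1-KO against Control, 11 for the double group against b-catenin-OE, 38 against Notch1-KO and 21 for the difference of differences. These fits called more genes of every kind: for the double group against Control 20.9% of all genes were higher, against 5.88% with all samples, and for b-catenin-OE against Control 19.3%, against 1.4%. In models of only the groups compared they were 38 against Control and 36 against Notch1-KO, and a pseudocount of 1 gave 3 against Notch1-KO. With samples 2 and 3 only, 11 members turned sign and passed in the double group against b-catenin-OE (-0.74 to -0.32) and 15 in the difference of differences (-1.28 to -0.70). Among them were Top2a in the double group against b-catenin-OE (-0.36) and, in the difference of differences, Top2a (-0.81), Birc5 (-0.80) and Ube2c (-0.84). Dropping samples and averaging them change the spread by construction; the cause of the other moves was not tested. A pseudocount of 0.1, a minimum of 1 FPKM, median-ratio scaling and an untrended variance gave 15, 15, 18 and 16 calls for the double group against Control.

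No label says what a sample number marks. Correlations of deviations between same-numbered samples ranged from 0.0379 to 0.572 and were above 0.1 in 17 of 18 pairs, so not in every pair, and the numbers were not taken to pair the samples. As a hint from the data of a component shared by number, samples numbered 1 correlated best with their own number in 6 of 6 pairs of groups, those numbered 2 in 4 and those numbered 3 in 1. With the number as a replicate block, 21 members were called for the double group against Control and 1 against Notch1-KO, and none in the other comparisons.

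With 3 samples a group, 2 of them nearly alike, depth unknown for the samples numbered 1, and members of a few FPKM, a difference that missed the threshold is not shown to be absent.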
